A study of Mus musculus with 6 samples.

Results

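Nonsense-mediated decay is the pathway that degrades mRNAs on which a ribosome stops too early, and 9 genes that encode its factors were followed in testes of mice at 5 days postpartum (dpp). The 9 genes were *Upf1*, *Upf2*, *Upf3a*, *Upf3b*, *Smg1*, *Smg5*, *Smg6*, *Smg9* and *Casc3*. They were chosen by symbol from 54532 genes, each symbol matched 1 row of the table, and all 9 were among the 16206 genes that passed a filter on low values and were tested. Polyadenylated RNA of whole testes was sequenced as 3 libraries from control mice (Ctrl) and 3 from conditional knockout mice (cKO). In the cKO mice, *Vasa*-Cre, which is active in the germ line, removed exons 2 to 4 of a floxed *Srsf1* allele, and the other *Srsf1* allele was already deleted. The labels describe the control animals only as Ctrl, so whether they carried Cre or a deleted allele is not known here. The deletion was made in germ cells, whereas each value is a total over the germ cells and the somatic cells of the testis, among them Sertoli and Leydig cells. The libraries were described by the study as biological replicates, and the labels do not say which animals or litters they came from.

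When a ribosome terminates with an exon junction complex still bound downstream, the helicase UPF1 is brought together with UPF2 and UPF3 proteins on that complex. The kinase SMG1, held in check by SMG8 and SMG9, phosphorylates UPF1, and phosphorylated UPF1 recruits SMG6, which cuts the transcript, and SMG5, which leads it to deadenylation and decapping. CASC3 is a component of the exon junction complex that strengthens decay. SRSF1, a serine/arginine-rich splicing factor, is known to promote the pathway when it is bound to a transcript. UPF2 and UPF3A have known roles in male germ cells.

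UPF3A and UPF3B are paralogs that bind UPF2 in a similar way, and UPF3B is regarded as the stronger activator of decay. Because reads from paralogs can be assigned to the wrong gene, the coding sequences were searched for the 30-base windows that are most alike. The closest pair differed at 4 positions, which are given in capitals, and both windows cross the junction of exons 2 and 3.
Upf3a: agcctttatcctcatGtCtaCTccagagca
Upf3b: agcctttatcctcatAtGtaTGccagagca
The *Upf3a* window covers coding bases 307 to 336 and lies within chr8:13786252-13787392 on the + strand. The *Upf3b* window covers coding bases 262 to 291 and lies within chrX:37108994-37109149 on the − strand. Both were read from GENCODE mouse release M21 transcripts on GRCm38. No coding window of 30 bases was therefore shared by the paralogs, and the reads were 150 bases long.

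The deposited values were FPKM, that is, fragments scaled to gene length and to sequencing depth, with a small further scaling between libraries. Whole reads could be recovered from FPKM and summed to between 15448191 and 18964743 per sample. Below, values of a group are given in the order of replicates 1 to 3. *Srsf1* measured 82.1, 89.1 and 88.4 FPKM across Ctrl 1 to 3, against 45.1, 46.3 and 51.6 FPKM across cKO 1 to 3. The groups did not overlap, and the log2 difference, cKO minus Ctrl, was −0.85 (SE 0.087) in log2(FPKM + 1) (limma, adjusted p-value 0.058, threshold 0.05). The summed level of 12 germ-cell markers was 139, 330 and 159 FPKM across Ctrl 1 to 3, against 37.0, 69.6 and 46.7 FPKM across cKO 1 to 3. Of these markers, 11 were below the Ctrl range in every cKO sample, against 12.8% of tested genes, and *Utf1* was not. At the threshold 0 of the 12 were called lower in limma and 4 in limma voom, which called 0.512% of genes, and 11 had an unadjusted p-value under 0.05 in limma. Ctrl 2 stood apart from the other Ctrl samples by its germ-cell total. Fewer cells of a type and less RNA per cell cannot be told apart in whole testes. The summed level of 6 Sertoli-cell markers ranged from 393 to 737 FPKM in Ctrl and from 732 to 959 FPKM in cKO testes, and that of 6 Leydig-cell markers from 363 to 544 and from 586 to 682 FPKM. The Sertoli-cell total was mostly *Amh*, whose mean was 425 FPKM for Ctrl and 698 FPKM for cKO testes, without overlap. Of the 6 markers, 4 were fitted lower, among them *Cldn11* at 49.4% of Ctrl without overlap. Thus 1 of 6 was higher and 1 of 6 lower without overlap, against 10.3% and 12.8% of tested genes. Of the Leydig-cell markers, 5 of 6 were fitted higher, against 50.5% of tested genes, and 3 were higher without overlap, against 10.3%. One protocol label names retinas, but 8 retina markers summed to at most 0.84 FPKM in any sample, with *Crx* and *Nrl* at 0 in all 6.

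Setting cKO beside Ctrl testes asked whether the decay factors differ in level once germ cells lose *Srsf1*. None of the 9 factors passed the test. In limma on log2(FPKM + 1), with p-values adjusted by the Benjamini-Hochberg method over all tested genes, 0 of 9 were lower and 0 of 9 were higher in cKO testes. Over all tested genes 0% were lower and 0% were higher at the same threshold. The study's own test of read counts, with DESeq2, called many genes in both directions. At an unadjusted p-value under 0.05, limma gave 1 of the 9 factors, *Upf3b*, and 2577 of the 16206 tested genes. Between groups that did not overlap, 1 of the 9 factors was higher, *Upf3b*, against 10.3% of tested genes, and 0 of 9 were lower, against 12.8% of tested genes. Under other forms of the test that made calls, 0 of 9 factors were called by limma voom on the recovered reads, which called 0.512% of genes. The same held with protein-coding genes alone, where 1.61% were called, and with the replicate number as a block, where 0.605% were called. The fitted differences of the 9 factors ran from −0.20 to 0.25 with a median of 0.03, against 0.00266 for all tested genes. Of the 9, 6 were above 0, against 50.5% of tested genes. The median size of the difference, ignoring sign, was 0.09 for the 9 factors and 0.14 for all tested genes. All 9 of the 95% intervals of the difference lay between 0.695-fold and 1.34-fold of Ctrl on the log2(FPKM + 1) scale.

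**Figure D1:**
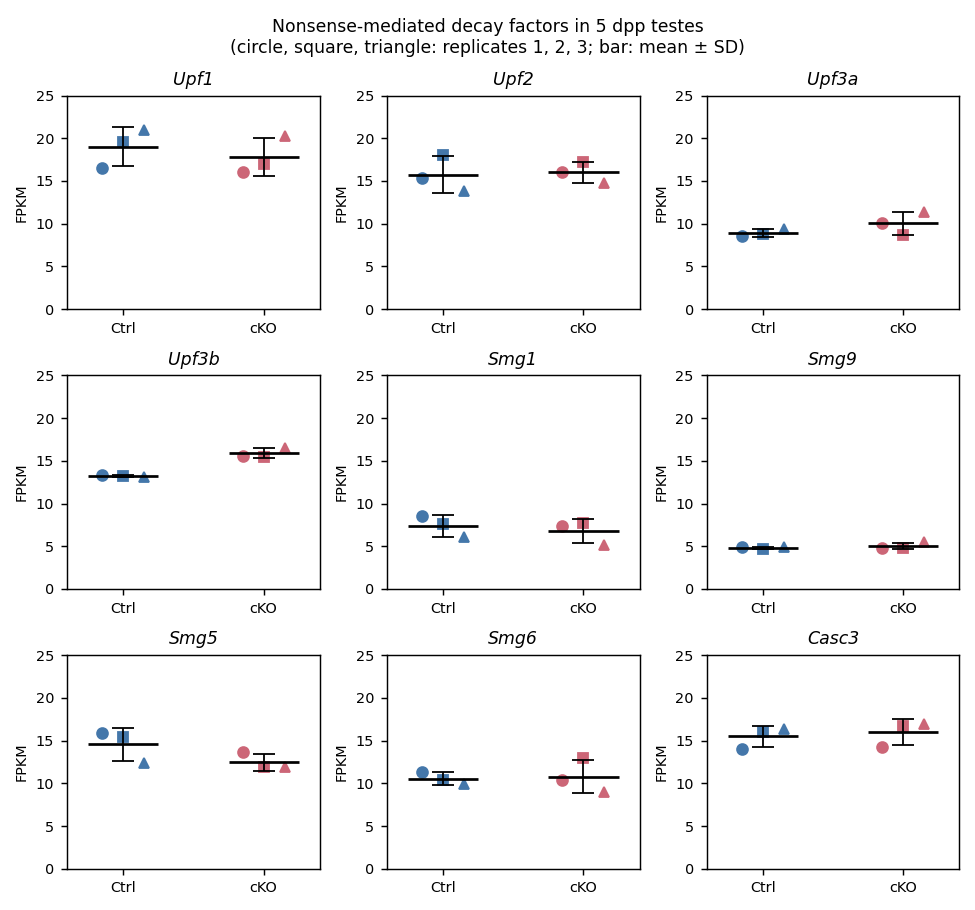
FPKM of the 9 decay factors (vertical axis, from 0) in the 3 Ctrl (blue) and 3 cKO (red) samples, with circles, squares and triangles for replicates 1, 2 and 3 and bars for the mean ± SD. The groups overlap in every panel except *Upf3b*, where Ctrl lies between 13.1 and 13.4 FPKM and cKO between 15.5 and 16.5 FPKM.

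**Figure D2:**
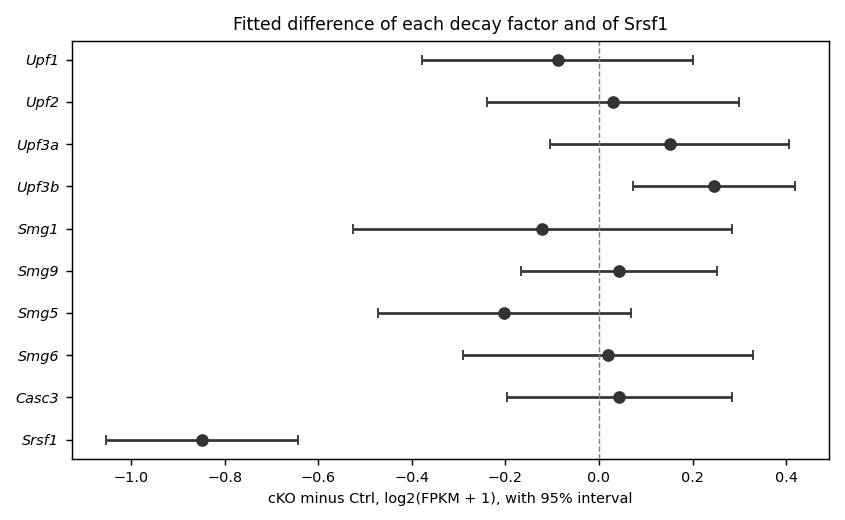
Fitted difference, cKO minus Ctrl, in log2(FPKM + 1) (horizontal axis) with its 95% interval for the 9 decay factors and *Srsf1*. The interval of *Upf3b*, from 0.07 to 0.42, and that of *Srsf1*, from −1.05 to −0.64, leave out 0, and the other 8 intervals include it.

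The UPF genes were examined first. *Upf1* (ENSMUSG00000058301, chr8:70331525-70353278, − strand) encodes the helicase at the centre of the pathway. *Upf1* measured 16.5, 19.6 and 20.9 FPKM across Ctrl 1 to 3, against 16.1, 17.0 and 20.3 FPKM across cKO 1 to 3. The groups overlapped almost completely, with replicate 1 lowest and replicate 3 highest in both. The means were 19.0 ± 2.28 FPKM (SD, n = 3) in Ctrl and 17.8 ± 2.24 FPKM (SD, n = 3) in cKO testes, and the log2 difference was −0.09 (SE 0.12, limma adjusted p-value 0.762). The protein-coding genes *Cers1* and *Gdf1* overlap *Upf1* on the other strand, and neither was above 2.64 FPKM in any sample. Whether the counting used strand is not given in the sources used here.

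*Upf2* (ENSMUSG00000043241, chr2:5951469-6056703, + strand) encodes the adaptor between UPF1 and the UPF3 proteins. *Upf2* measured 15.4, 18.0 and 13.8 FPKM across Ctrl 1 to 3, against 16.0, 17.3 and 14.8 FPKM across cKO 1 to 3. Replicate 2 was highest and replicate 3 lowest in both groups, and the cKO values lay within the Ctrl range. The fitted log2 difference was 0.03 (SE 0.11, limma adjusted p-value 0.919).

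*Upf3a* (ENSMUSG00000038398, chr8:13785615-13799193, + strand) measured 8.53, 8.79 and 9.44 FPKM across Ctrl 1 to 3, against 10.0, 8.73 and 11.4 FPKM across cKO 1 to 3. Samples cKO 1 and cKO 3 were above every Ctrl sample, whereas cKO 2 was within the Ctrl range. The log2 difference was 0.15 (SE 0.11, limma adjusted p-value 0.530).

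*Upf3b* (ENSMUSG00000036572, chrX:37091678-37110322, − strand) measured 13.4, 13.2 and 13.1 FPKM across Ctrl 1 to 3, against 15.6, 15.5 and 16.5 FPKM across cKO 1 to 3. The 3 Ctrl values were nearly the same, and every cKO sample was above all of them. The means were 13.2 ± 0.142 FPKM (SD, n = 3) in Ctrl and 15.9 ± 0.581 FPKM (SD, n = 3) in cKO testes, which is 120% of the Ctrl mean. This gap exceeded the replicate spread, but the log2 difference of 0.25 (SE 0.073, unadjusted p-value 0.012) was not called (limma adjusted p-value 0.202). Its adjusted p-value ranged from 0.142 to 0.433 over the 17 alternatives, and its log2 difference from 0.22 to 0.26. Each of these values rests on 866 to 1033 reads. The germ-cell and Leydig-cell marker totals did not overlap between the groups either, and their part in the *Upf3b* values was not tested. Without Ctrl 2, the sample with the highest germ-cell total, the log2 difference of *Upf3b* was 0.25 as well. The germ-cell totals of the remaining samples still did not overlap between the groups, so this fit does not test their part.

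The paralogs were then compared within each sample. *Upf3b* was above *Upf3a* in all 6 samples, with FPKM ratios of 1.57, 1.5 and 1.39 across Ctrl 1 to 3 and of 1.56, 1.77 and 1.45 across cKO 1 to 3. The mean ratio was 1.49 ± 0.0908 (SD, n = 3) in Ctrl and 1.59 ± 0.165 (SD, n = 3) in cKO testes. These ratios overlapped between groups. The difference of 0.10 in the mean log2 ratio had a two-sided p-value of 0.5 in an exact permutation test, for which 3 against 3 samples cannot give a value below 0.1. FPKM scales each gene by its deposited length, which was 5865 bases for *Upf3a* and 3999 bases for *Upf3b*, although the coding transcripts with which they were matched were 2057 and 2344 bases long. The ratio between the paralogs therefore depends on which exons the length counts.

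The genes of the kinase complex followed. *Smg1* (ENSMUSG00000030655, chr7:118131308-118243670, − strand) encodes the kinase that phosphorylates UPF1. *Smg1* measured 8.59, 7.63 and 6.05 FPKM across Ctrl 1 to 3, against 7.42, 7.76 and 5.14 FPKM across cKO 1 to 3. Replicate 3 was lowest in both groups, and the spread within the groups was wider than the gap between them. The fitted log2 difference was −0.12 (SE 0.17, limma adjusted p-value 0.767), and its interval from −0.53 to 0.28 was the widest of the 9.

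*Smg9* (ENSMUSG00000002210, chr7:24399619-24422778, + strand) encodes a subunit that binds and restrains the kinase. *Smg9* measured 4.92, 4.71 and 4.89 FPKM across Ctrl 1 to 3, against 4.81, 4.80 and 5.46 FPKM across cKO 1 to 3. Only cKO 3 was above the Ctrl range. The log2 difference was 0.04 (SE 0.089, limma adjusted p-value 0.848). *Smg9* had the fewest reads of the 9 factors, between 280 and 332 per sample.

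The effectors that act on phosphorylated UPF1 were considered next. *Smg5* (ENSMUSG00000001415, chr3:88336260-88362338, + strand) measured 15.9, 15.4 and 12.4 FPKM across Ctrl 1 to 3, against 13.6, 12.0 and 11.9 FPKM across cKO 1 to 3. Ctrl 1 and Ctrl 2 were above every cKO sample, and Ctrl 3 was not. The mean in cKO testes was 85.7% of that in Ctrl testes, the lowest percentage of the 9 factors. The fitted log2 difference was −0.20 (SE 0.11, limma adjusted p-value 0.435). *Smg6* (ENSMUSG00000038290, chr11:74925823-75164448, + strand), the endonuclease gene, measured 11.4, 10.4 and 9.88 FPKM across Ctrl 1 to 3, against 10.4, 12.9 and 9.04 FPKM across cKO 1 to 3. The highest and the lowest of the 6 values were both from cKO samples. The log2 difference was 0.02 (SE 0.13, limma adjusted p-value 0.957). On the other strand, 6 annotated genes overlap *Smg6*, of which *Srr* was the highest, at 7.17 FPKM in its highest sample.

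The exon junction component *Casc3* (ENSMUSG00000078676, chr11:98804905-98833814, + strand) measured 14.0, 16.0 and 16.4 FPKM across Ctrl 1 to 3, against 14.3, 16.8 and 17.0 FPKM across cKO 1 to 3. Replicate 1 was lowest and replicate 3 highest in both groups. The fitted log2 difference was 0.04 (SE 0.10, limma adjusted p-value 0.868). Of the 50-base stretches of *Casc3* transcripts, 10.3% also occur in the antisense gene *Gm12359*, listed at up to 0.941 FPKM, so that the reads of *Casc3* are less certain. The span of *Msl1*, at up to 29.9 FPKM, overlaps that of *Casc3* on the same strand, but *Msl1* transcripts shared no such stretch. For the other 8 factors, at most 1.74% of such stretches occurred in another gene.

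By their mean over the 6 samples, the factors were ordered from *Upf1* at 18.4 FPKM through *Upf2* at 15.9, *Casc3* at 15.7, *Upf3b* at 14.6, *Smg5* at 13.5, *Smg6* at 10.7, *Upf3a* at 9.49 and *Smg1* at 7.10 to *Smg9* at 4.93 FPKM. Between *Upf1* and *Smg9* the level per length differed by 3.73 times. The ranges over the 6 samples overlapped for every pair of neighbours in this order. Within samples, each factor was above the next in 4 or 5 of the 6, so no pair of neighbours kept its order in all samples. The summed level of the 9 factors was 109, 114 and 107 FPKM across Ctrl 1 to 3, against 108, 113 and 112 FPKM across cKO 1 to 3. These totals overlapped between the groups, although the germ-cell marker totals did not.

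Several decay factor genes are known to be targets of the pathway themselves, through features such as a long 3′ UTR. In the M21 annotation, the 3′ UTR was longer than the median of 725 bases of protein-coding genes for 7 of the 9 factors. *Smg1* at 4233 bases was the longest and *Smg9* at 400 bases the shortest. *Smg1* was at percentile 95.4 of protein-coding genes, and the other factors above the median lay between percentiles 53.9 and 72.9. No exon junction lay more than 50 bases downstream of the stop codon in the main coding transcript of any of the 9. The same held for all but 0.389% of protein-coding genes, and transcripts annotated as decay targets could not be the main one. *Smg1*, *Smg5* and *Smg6* each had 1 transcript annotated as a decay target, and 20.5% of protein-coding genes had at least 1. The values analysed here are per gene and do not separate those transcripts.

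The other genes of the pathway were described as a list of 28 with the junction, termination, cap-binding and decapping genes that work with the factors above. Of the 28, 0 were lower and 0 were higher at the threshold in limma and in limma voom, and 1, *Gspt1*, had an unadjusted p-value under 0.05 in limma. Of the list, 16 were fitted lower and 12 higher, and the median difference was −0.05, against 0.00266 for all tested genes. *Smg8*, the partner of *Smg9*, measured 11.9, 15.3 and 9.82 FPKM across Ctrl 1 to 3, against 10.3, 8.84 and 10.0 FPKM across cKO 1 to 3. Its log2 difference was −0.29 (SE 0.15, limma adjusted p-value 0.403), and the groups overlapped through Ctrl 3.

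In 2 of the 28 genes every cKO value was below every Ctrl value, and in 1 every cKO value was above. *Gspt1*, which encodes the termination factor eRF3a, measured 24.0, 27.2 and 24.2 FPKM across Ctrl 1 to 3, against 20.8, 20.5 and 21.6 FPKM across cKO 1 to 3 (limma adjusted p-value 0.232). *Ncbp1*, which encodes the large cap-binding subunit, measured 29.5, 42.3 and 29.9 FPKM across Ctrl 1 to 3, against 27.0, 25.8 and 28.3 FPKM across cKO 1 to 3 (limma adjusted p-value 0.368). Ctrl 2, the sample with the highest germ-cell total, was also the highest for both genes. *Pnrc2*, which links UPF1 to decapping, measured 67.0, 69.0 and 65.2 FPKM across Ctrl 1 to 3, against 72.6, 74.7 and 72.0 FPKM across cKO 1 to 3 (limma adjusted p-value 0.454). All 3 counts are to be read against the 12.8% and 10.3% of tested genes without overlap, which is a larger share than that of the list in either direction.

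By role, the 5 genes of the junction core and its recycling, the 2 cap-binding genes and the 2 genes of kinase regulation were fitted lower, as were 8026 of the 16206 tested genes, and the junction gene *Casc3* was fitted higher. None of these passed the test, with a lowest adjusted p-value of 0.368 in limma. The lowest difference of the 28 genes was that of *Magoh*, a core subunit, with 98.9, 143 and 115 FPKM across Ctrl 1 to 3, against 85.8, 87.6 and 110 FPKM across cKO 1 to 3. The highest difference of the list, 0.31 (SE 0.39, limma adjusted p-value 0.734), was that of *Rnps1*, a peripheral junction protein gene. *Rnps1* was at 26.6 FPKM in Ctrl 1 and between 64.2 and 85.7 FPKM in the other 5 samples, and without Ctrl 1 its log2 difference was −0.20.

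**Figure D3:**
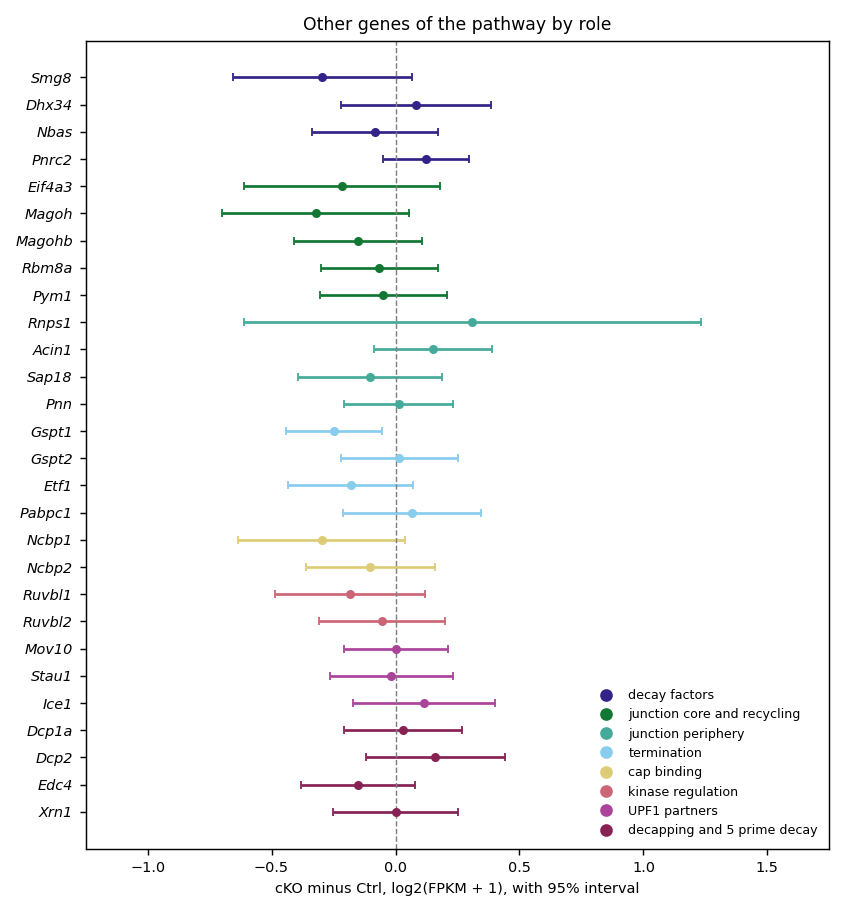
Fitted difference, cKO minus Ctrl, in log2(FPKM + 1) (horizontal axis) with its 95% interval for the 28 other genes of the pathway, coloured by role. The interval of *Gspt1*, from −0.44 to −0.05, leaves out 0, those of all other genes shown include it, and *Rnps1* has the widest.

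A list of 15 transcripts that are widely known to accumulate when the pathway is blocked was described next. None passed the test in limma or in limma voom, and 5 of the 15, 4 higher and 1 lower, had an unadjusted p-value under 0.05 in limma, beside 2577 of the 16206 tested genes. Of the 15, 12 were fitted higher and 3 lower, while 50.5% of tested genes were fitted higher. The median log2 difference was 0.21, against 0.00266 for all tested genes. In limma on log2(FPKM + 1), the lowest adjusted p-value among the 15 was 0.112. Without overlap, 4 of 15 were higher, against 10.3% of tested genes, and 2 of 15 were lower, against 12.8%. The summed level of the list was 248, 259 and 237 FPKM across Ctrl 1 to 3, against 282, 273 and 299 FPKM across cKO 1 to 3. These totals did not overlap, and the germ-cell, Sertoli-cell and Leydig-cell totals given above also differed between the samples. Their part in the values of this list was not tested. Many of these transcripts also respond to stress and growth signals through transcription.

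The 5 noncoding RNAs of the list host small nucleolar RNAs in their introns, and their spliced RNAs are known substrates of the pathway. All 5 were fitted higher, from 0.17 to 0.37. *Gas5* measured 42.8, 49.0 and 40.6 FPKM across Ctrl 1 to 3, against 56.0, 56.1 and 59.2 FPKM across cKO 1 to 3. Every cKO sample was above every Ctrl sample, and the log2 difference was 0.37 (SE 0.093, limma adjusted p-value 0.157). *Snhg5* measured 32.6, 33.2 and 26.8 FPKM across Ctrl 1 to 3, against 37.1, 35.6 and 39.5 FPKM across cKO 1 to 3, also without overlap (limma adjusted p-value 0.279).

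Of the 10 stress response mRNAs, 7 were fitted higher and 3 lower. *Gadd45a*, a growth arrest gene, had the highest difference of the list. *Gadd45a* measured 4.76, 3.93 and 4.17 FPKM across Ctrl 1 to 3, against 6.13, 6.28 and 6.24 FPKM across cKO 1 to 3. Its log2 difference was 0.45 (SE 0.093, limma adjusted p-value 0.112), and the adjusted p-value ran from 0.0584 to 0.331 over the alternatives. *Ddit3*, which encodes the stress factor CHOP and has another identifier listed at 0 in all samples, measured 11.0, 9.96 and 8.87 FPKM across Ctrl 1 to 3, against 13.6, 14.5 and 12.3 FPKM across cKO 1 to 3 (limma adjusted p-value 0.165). *Asns*, the asparagine synthetase gene, had the lowest difference of the list, with 32.6, 25.6 and 30.2 FPKM across Ctrl 1 to 3, against 24.4, 21.8 and 23.5 FPKM across cKO 1 to 3 (limma adjusted p-value 0.223). *Atf3*, a stress-induced transcription factor gene, measured 1.66, 1.56 and 1.60 FPKM across Ctrl 1 to 3, against 1.18, 1.36 and 1.26 FPKM across cKO 1 to 3 (limma adjusted p-value 0.409). *Asns* and *Atf3* were thus without overlap in the direction opposite to *Gas5*, *Snhg5*, *Gadd45a* and *Ddit3*. Without Ctrl 2, a choice made after seeing the data, 7 of the 15 were higher without overlap and 2 were lower. These counts stand against 13.5% and 15.9% of tested genes, with *Snhg1*, *Snhg15* and *Atf4* added to the higher ones. Leaving out a sample can only keep or raise such counts, and the recount was made for no other sample.

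**Figure D4:**
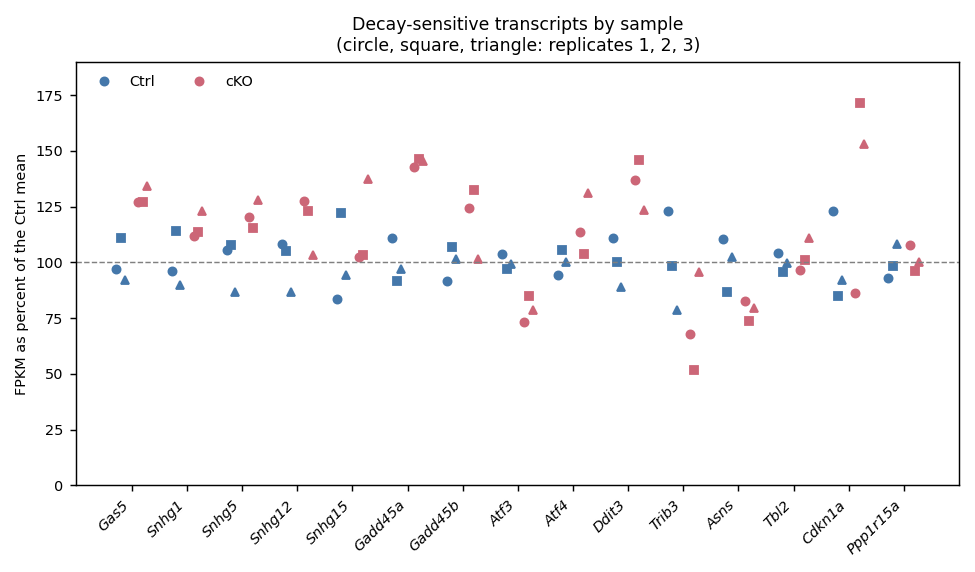
FPKM as a percent of the Ctrl mean (vertical axis, from 0) for the 15 decay-sensitive transcripts in each Ctrl (blue) and cKO (red) sample, with circles, squares and triangles for replicates 1, 2 and 3. *Gas5*, *Snhg5*, *Gadd45a* and *Ddit3* have every cKO point above every Ctrl point, *Atf3* and *Asns* have every cKO point below, and the groups of the other 9 overlap.

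The profile of the 9 factors over the 6 samples, taken as the mean of their standardized levels, was compared with that of 13195 other protein-coding genes. The 3 most alike were *Hnrnpr* (Pearson's r = 0.969), *Tcea3* (r = 0.968) and *Gabre* (r = 0.965), and 6 genes reached 0.95. The r of each gene is over 6 samples that share libraries and depth, and is given as a description. The mean profile itself ran only from −0.311 SD in Ctrl 3 to 0.254 SD in cKO 3. The factors did not vary together, with replicate 3 lowest for some and highest for others. These genes are therefore not shown to resemble any single factor.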

How the data were processed

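Polyadenylated RNA of testes was sequenced by the authors as 150-base paired-end reads, in 3 Ctrl and 3 cKO libraries. Reads were aligned to mm10 with HISAT2 2.0.5, per the labels and the study's methods, and counted per gene with featureCounts. The authors deposited 1 table of FPKM values with gene lengths and GRCm38 coordinates, and tested counts with DESeq2. That test called many genes lower and higher, and the study reported *Srsf1* as significantly reduced. The lack of calls over all genes thus belongs to the limma fit used here. The annotation release and strand setting are not given in the sources used here. Groups and replicate numbers were taken from the sample titles.

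Reads were recovered as FPKM times gene length, and 100% of values were whole within 0.01. For a gene of 1 kb, 3 reads correspond to 0.158 to 0.194 FPKM, which covers counting error only. Limma 3.58.1 in R 4.3.3 was fitted to log2(FPKM + 1) of the 16206 genes whose mean was 0.5 FPKM or more, with 2 groups, no covariate and trended empirical Bayes moderation, two-sided, Benjamini-Hochberg adjusted, with a threshold of 0.05. Differences on this scale understate the change of low genes. The p-values weigh a difference against the spread between these samples, moderated over all tested genes. The fit was tested on simulated data. Alternatives were no filter, a filter at a mean of 1 FPKM, a pseudocount of 0.1, TPM, quantile normalization, scaling undone, no trend, a replicate block, protein-coding genes only, limma voom, sample weights and leaving out each replicate. Counts without overlap were repeated without Ctrl 2 after seeing the data, and leaving out a sample can only keep or raise them.

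Named genes were the 9 factors, *Srsf1*, *Smg8*, listed genes past the threshold or without overlap, the highest and lowest of each list, and the 3 genes most alike. Genes outside this rule are named for overlap with a factor, as markers, or as added without Ctrl 2. The 9 factors and the lists were chosen with earlier results of these data known. Annotation was from GENCODE M21, where all 9 had the same coordinates. One gene planned for the wider pathway list is not reported here.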

Additional observations from a re-analysis of the deposited data

How the results depend on the processing

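Over the 17 alternatives, 0 of 153 values of the 9 factors passed the threshold, and the lowest adjusted p-value in limma was 0.142. In the same alternatives 0 of the 28 other pathway genes and 0 of the 15 decay-sensitive transcripts passed. The counts over all genes did move, from 0 lower and 0 higher. TPM gave 1 lower and 4 higher, no mean-variance trend 1 higher, protein-coding genes only 176 and 37, limma voom 61 and 22, and sample weights 55 and 13. The replicate block gave 84 lower and 14 higher. Deviations of same-numbered samples from their group means correlated at 0.0663, 0.0162 and 0.0882, so the numbers were not taken as pairs. *Srsf1* passed under TPM (adjusted p-value 0.0362), the block (0.0326), protein-coding genes only (0.016), voom (0.0255) and sample weights (0.0292). Leaving out 1 replicate gave 0 to 15 genes lower and 0 to 3 higher, and calls were made without Ctrl 2 (15 and 3) or Ctrl 3 (2 and 3). In these fits without 1 replicate, the median log2 difference of the 9 factors ranged from −0.0223 (without cKO 2) to 0.0404, and was −0.0182 without Ctrl 3. Its highest value over all alternatives was 0.052, with quantile normalization. That of the decay-sensitive list ranged from 0.142 (without Ctrl 3) to 0.246 without 1 replicate, and was 0.121 with protein-coding genes only, where its 5 noncoding RNAs were left out.

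Small differences turned in sign. *Casc3* was −0.00794 with sample weights and −0.0219 without Ctrl 1, *Upf2* −0.0546 without Ctrl 3 and −0.0223 without cKO 2, *Smg6* −0.022 and −0.107 in the same fits, *Smg1* 0.0404 and *Smg9* −0.00828 without cKO 3 and *Rnps1* −0.199 without Ctrl 1. At their other end, the fits that left out 1 replicate gave 0.119 for *Casc3*, 0.127 for *Upf2*, 0.129 for *Smg6*, −0.244 for *Smg1*, 0.0685 for *Smg9* and 0.626 for *Rnps1*. Without Ctrl 2, a choice made after seeing the data, 7 decay-sensitive transcripts and 2 of the other pathway genes (*Pnrc2* and *Pnn*) were higher without overlap, against 13.5% of tested genes, and 2 of each list were lower, against 15.9%. Except where stated, the cause was not tested. With 3 samples a group, the precision is that of the intervals given above, and values per gene do not show splicing or decay of single transcripts.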

Other observations

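Replicate 3 was the lowest of its group for *Upf2*, *Smg1*, *Smg5* and *Smg6* in both Ctrl and cKO testes, and the highest for *Upf1*, *Upf3a* and *Casc3* in both. For tested protein-coding genes, the deviation of a sample from the mean of the 3 samples of its group was taken in log2(FPKM + 1). Among genes under 2000 bases, the median deviation was 0.0955 in cKO 3 and −0.0744 in cKO 2. Among genes of 5000 bases and over, it was −0.0399 in cKO 3 and 0.0405 in cKO 2. Across Ctrl 1 to 3 it was −0.0472, 0.0093 and 0.0234 for genes under 2000 bases. For genes of 5000 bases and over it was 0.024, −0.0126 and −0.0189 across Ctrl 1 to 3. The lengths of *Upf2*, *Smg1*, *Smg5* and *Smg6* were all over 5000 bases, as was that of *Upf3a*. The part of length in these values was not tested.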
